A study of Rattus norvegicus with 20 samples.

Results

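The comparison described here is the first priming interval, 1 week, of rat bone marrow mesenchymal stromal cells (MSCs) on a soft surface of 2 kPa (1w2) against a stiff surface of 100 kPa (1w100). Its members were chosen by their labels alone, as the libraries of passage 1, and comprise 6 of the 20 bulk RNA-seq libraries, 3 of 1w2 and 3 of 1w100, numbered 1 to 3 on each surface. The other 14 libraries came from cells kept on soft or stiff surfaces for 3 weeks (3w2, 3w100) or 5 weeks (5w2, 5w100), or switched between surfaces after 3 weeks (3w2→2w100, 3w100→2w2). The question of the comparison is how far soft and stiff surfaces separate MSC transcription at the earliest time point that was sequenced.

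Cells of both groups came from femurs and tibias of female Wistar rats, with no genetic change in the labels, and each isolation used the marrow of a single rat. Marrow was plated directly onto soft or stiff dishes. After an initial expansion on that surface, cells carrying CD54 and CD90 were positively selected with magnetic beads, a step meant to remove blood-forming cells. Both groups grew on silicone elastomer coated with gelatin in α-MEM with fetal bovine serum, penicillin and streptomycin. The libraries labelled 1 week include cells already expanded on their surface before passage 1. The animals' age is not given in the sources used here.

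MSCs are adherent, fibroblast-like cells of the marrow stroma that can form bone, fat and cartilage and that support tissue repair. They sense the stiffness of their surroundings through integrin adhesions and actomyosin contraction, which feed into regulators such as YAP and TGF-β signaling. On stiff surfaces they can turn into myofibroblasts, contractile cells with α-SMA in their stress fibers that deposit scar matrix, a process linked to fibrosis.

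The 6 libraries had 16473534 to 19526226 counts on genes and 16353 to 16961 genes with at least 1 count, and the 10 most abundant genes took 13.5% to 16.9% of the counts. Levels are given in CPM, the counts of a gene as a share of its library's total after scaling by edgeR's TMM method. The deposited table holds 30560 Ensembl gene identifiers without symbols, and 0 of them were matched in the reference table used here. Genes are therefore described as groups and by 4 identifiers, and neither the markers of MSCs nor those of other marrow cells were checked against the label.

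Soft and stiff MSCs of the same replicate number resembled each other more closely than MSCs of different numbers on the same surface. Among 14034 genes with enough counts, 240 (1.71%) differed by over 2-fold between the soft and the stiff library numbered 1, 422 (3.01%) between those numbered 2 and 311 (2.22%) between those numbered 3. Between libraries of 1w2, these numbers were 833 (5.94%) for replicates 1 and 2, 1199 (8.54%) for replicates 1 and 3 and 1572 (11.2%) for replicates 2 and 3. Between libraries of 1w100 they were 667 (4.75%), 1278 (9.11%) and 1365 (9.73%) in the same order. Each of the 3 soft and stiff pairs of one number thus differed in fewer genes than each of the 6 pairs on one surface.

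**Figure D1:**
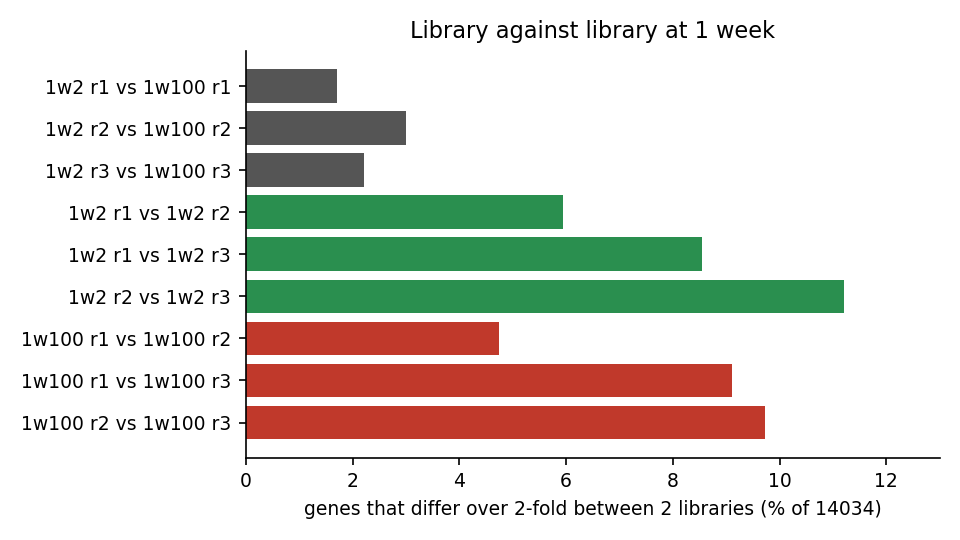
Percent of 14034 genes that differed by over 2-fold between 2 libraries of 1-week MSCs, as bars from 0, for soft against stiff libraries of the same replicate number (grey), soft against soft (green) and stiff against stiff (red). The grey bars run from 1.71% to 3.01% and all bars within a surface lie between 4.75% and 11.2%.

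The standard deviation of the log2 difference over these genes gave the same order, with 0.30, 0.39 and 0.33 for the soft and stiff pairs numbered 1, 2 and 3. Within 1w2 it was 0.49 to 0.68, and within 1w100 it was 0.45 to 0.64. No libraries were copies of each other. A chi-square statistic per degree of freedom, which is near 1 where counts differ by sampling noise alone, was 5.69 to 6.89 for same-numbered libraries and 22.6 to 63.8 for all others.

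The replicate number went with most of the spread among the 6 libraries. Over the 13207 genes that passed the filter on these libraries, the number accounted for 79.9% of the summed squares of log2 CPM, the surface for 8.86%, and the remainder for 11.2%. Per degree of freedom these were 40.0% for the number, 8.86% for the surface and 5.62% for the remainder. In single genes the number held over 50% of the squares in 9929 genes, the surface in 538 and the remainder in 1654. The median share of a gene was 77.1% for the number, 4.42% for the surface (1 degree of freedom) and 11.5% for the remainder (2 degrees). edgeR's quasi-likelihood test called 5613 genes for the replicate number at a Benjamini-Hochberg adjusted p below 0.05, which is 42.5% of the genes tested, and 6731 (51%) lay below 0.05 before adjustment. The pair numbered 3 weighed most in these values. Without it, the number held 62.8% of the squares and the surface 22.3%, and 2035 genes were called for the number. With all pairs, DESeq2 called 3323. The labels do not say what a number stands for. The paper describes replicates as MSCs of different rats, and whether a number marks the same rat on both surfaces was not tested.

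Without regard to the number, no gene passed the test between soft and stiff MSCs. edgeR's quasi-likelihood test in 1 model of all 8 groups called 0 of 14034 genes (0%) between 1w2 and 1w100, with 54 (0.385%) below 0.05 before adjustment. The count with DESeq2 was likewise 0. The standard error of the log2 fold change in this fit was 0.17 for the median gene. Standard errors given here were back-calculated from the fitted log2 fold change and the F statistic of the edgeR test. The p-values take account only of the spread between the sequenced libraries, which the fit over all groups estimated from all 8 groups.

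When the mean of each group was subtracted, the soft and stiff libraries of one number correlated over 14034 genes with r = 0.626, 0.650 and 0.777, whereas r between libraries of different numbers ran from -0.580 to 0.0889. Deviations within a group cancel out, so positive correlations of same-numbered libraries by themselves lower those of different numbers. Same-numbered libraries, all with positive r, were therefore also compared as pairs. This edgeR fit of the 6 libraries had surface and replicate number as terms. In this paired fit 39 of 13207 genes (0.295%) were called, 14 (0.106%) with the higher level on the soft surface and 25 (0.189%) with the higher level on the stiff one. Before adjustment 1041 genes (7.88%) lay below 0.05. The median standard error of the 39 genes was 0.08 in the paired fit, as for all tested genes. In the fit over all groups it was 0.61, against 0.17 for all tested genes. In that latter fit each of the 39 had an adjusted p of 1, and 7 had an unadjusted p below 0.05. Without the pair numbered 1, the paired fit called 5 genes, 3 of them among the 39, without the pair numbered 2 it called 92 (35 among the 39) and without the pair numbered 3 it called 153 (35 among the 39). In bulk samples, fewer cells of a type and less RNA per cell cannot be told apart, for these and all later differences.

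Most of the differences were small. Over all 13207 genes the median size of the log2 fold change was 0.07, a fold of 1.05, and 12925 genes differed by less than 1.5-fold. Only 62 genes (0.469%) differed by over 2-fold, 13 of them among the 39 called. The called genes had a median size of 0.58 on the log2 scale and folds from 1.24 to 17.1, and 20 of them differed by less than 1.5-fold. All 39 moved in the same direction in the 3 pairs, which 3823 of all tested genes (28.9%) also did. The calls were made on these same pairs, so the selection itself favors such agreement. The CPM ranges of the surfaces were separate for 6 of the 39, against 464 (3.51%) of all tested genes, so that most of the called differences lay inside the span of the replicates. Of the 39, 38 were also called for the replicate number, as were 42.5% of all tested genes.

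**Figure D2:**
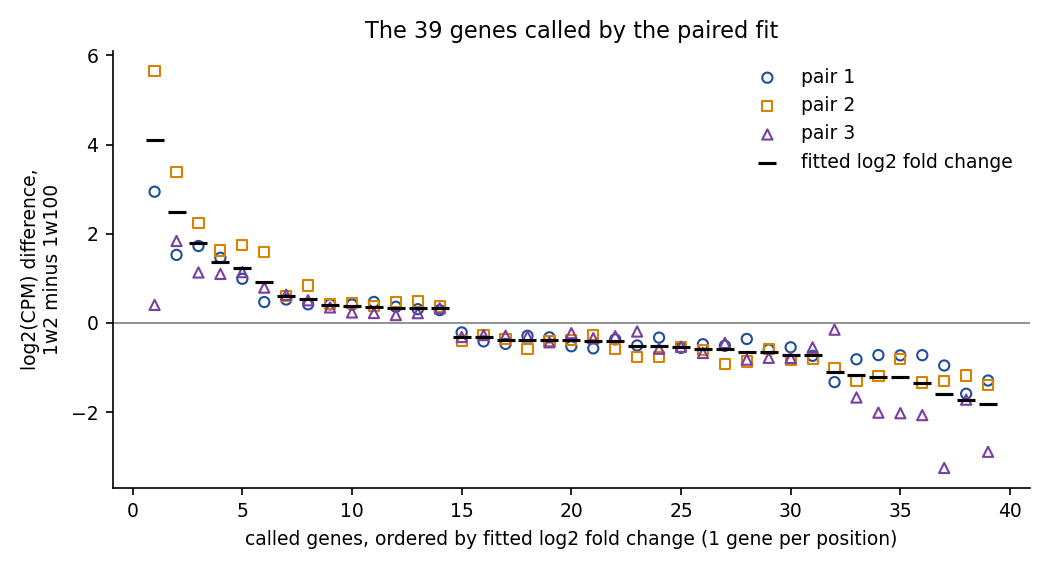
Difference in log2 CPM between the 1w2 and the 1w100 library of pair 1 (circles), pair 2 (squares) and pair 3 (triangles) for each of the 39 called genes, ordered by the fitted log2 fold change (black bars). The 14 genes on the left lie above 0 and the 25 on the right lie below 0 in every pair.

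The last gene below the threshold had a log2 fold change of 0.34 (edgeR adjusted p = 0.0475), and the first above it one of -0.55 (edgeR adjusted p = 0.0537). The difference of one pair told little of the next across all genes, with correlations of the log2 differences of 0.161 between pairs 1 and 2, 0.0878 between pairs 1 and 3 and 0.157 between pairs 2 and 3. Genes are not independent replicates in such a correlation. Genes detected on one surface only were few and scarce. Of 19111 genes with a count in any of the 6 libraries, 24 had counts in every soft and no stiff library, with at most 7 counts summed per gene, and 39 had counts in every stiff and no soft library, with at most 11.

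The genes called higher in 1w2 varied widely in level. The 14 genes had means from 1.13 to 386 CPM over the 6 libraries, with a median of 34.5, and a median log2 fold change of 0.57. Of these, 5 differed by over 2-fold and 7 by less than 1.5-fold, and 4 had separate ranges on the surfaces.

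ENSRNOG00000002385 had the largest fold of all called genes. It stood at 7.01, 15.6 and 0.23 CPM in the 1w2 libraries numbered 1, 2 and 3, a mean of 7.61 ± 7.70 (SD, n = 3). In 1w100 it stood at 0.82, 0.21 and 0.15 CPM, a mean of 0.39 ± 0.37 (SD, n = 3). The gene was well detected in 2 soft libraries, though below the median level of all tested genes at 1 week (20.2 CPM). In the other soft library it was near the floor of detection, with 4 counts against 3 in its stiff counterpart, so the surfaces overlapped. The log2 differences of the pairs were 2.94, 5.66 and 0.41, a wider spread than the standard error of the paired fit conveys. The paired fit put the log2 fold change at 4.10 ± 0.44 (standard error; edgeR adjusted p = 0.00240), and the fit over all groups at 4.22 ± 1.70 (edgeR adjusted p = 1). Its call depended on the tool, since in the paired layout DESeq2 gave an adjusted p of 0.870, edgeR with robust estimation 0.186 and limma-voom 0.0334, and it was filtered out without the pair numbered 1. Its size moved as well, to 2.86 in the paired fit without the pair numbered 2, and in the fit over all groups to 3.17 without 1w2 replicate 2 and 5.36 without 1w100 replicate 1.

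ENSRNOG00000029911 showed nearly the same ratio in every pair at very different levels. It stood at 16.8, 17.2 and 126.5 CPM in 1w2 and at 11.6, 11.3 and 81.5 CPM in 1w100. The libraries numbered 3 were high on both surfaces, and the stiff one of them exceeded the other soft libraries. The pair differences were 0.53, 0.60 and 0.63 on the log2 scale, and the fit gave 0.61 ± 0.07 (standard error; edgeR adjusted p = 0.00248). In the fit over all groups the same difference, 0.62, had a standard error of 1.07.

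The genes called higher in 1w100 covered a wider range of levels than those higher in 1w2. The split of 14 and 25 depended on the setting, since without a filter on low counts 88 of 184 called genes were higher in 1w2, 3 of 5 were so without the pair numbered 1, and before adjustment 474 of 1041 in the paired fit and 32 of 54 in the fit over all groups. The 25 genes had means from 1.06 to 2215 CPM with a median of 29.8, and a median log2 fold change of -0.58 (1w2 over 1w100). Their folds ran from 1.24 to 3.55, with 8 over 2-fold and 13 under 1.5-fold, and 2 had separate ranges on the surfaces.

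ENSRNOG00000005825 had the smallest p of the paired fit. It stood at 246.7, 92.5 and 119 CPM in 1w2 and at 359.8, 165 and 206 CPM in 1w100. Each stiff library exceeded its soft counterpart, while the soft library numbered 1 exceeded both stiff libraries of the other numbers. The pair differences were -0.54, -0.84 and -0.78, and the fitted log2 fold change was -0.71 ± 0.06 (standard error; edgeR adjusted p = 0.00106), or 1.64-fold higher in 1w100. It was called again without the pair numbered 1 (edgeR adjusted p = 0.00977).

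ENSRNOG00000017786 followed with a similar ratio. It stood at 27.9, 76.8 and 11.8 CPM in 1w2 and at 46.5, 133.8 and 17.2 CPM in 1w100. The libraries numbered 2 were the highest and those numbered 3 the lowest on both surfaces, and the ranges overlapped. The pair differences were -0.74, -0.80 and -0.55, and the fitted log2 fold change was -0.72 ± 0.07 (standard error; edgeR adjusted p = 0.00109), or 1.65-fold higher in 1w100. Without the pair numbered 1, its adjusted p and that of ENSRNOG00000029911 were both 0.0552 in the same edgeR fit.

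**Figure D3:**
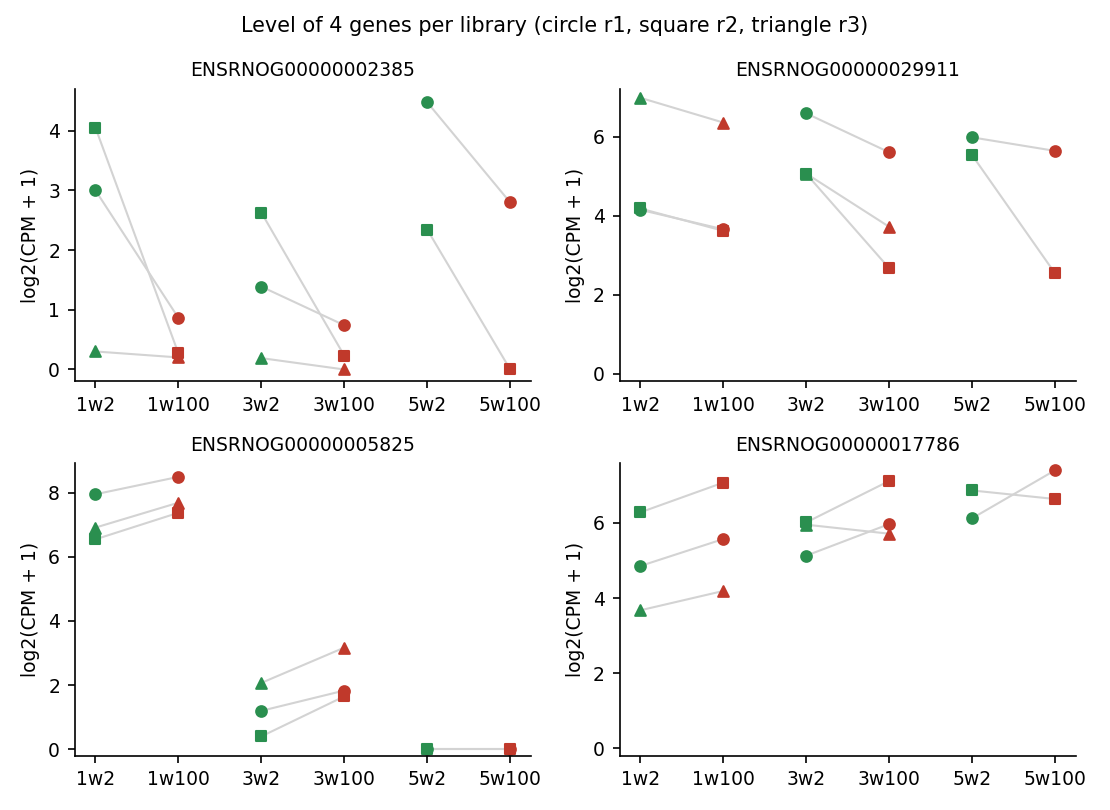
Level of 4 genes on a log2(CPM + 1) axis in each library of the 1-, 3- and 5-week groups, soft in green and stiff in red, with grey lines joining libraries of one replicate number (circle 1, square 2, triangle 3). At 1 week every line runs down from soft to stiff in the upper panels and up in the lower panels, and ENSRNOG00000005825 falls from 92.5 CPM or more at 1 week to 0 at 5 weeks.

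The later weeks showed these 4 genes in different ways. Libraries of one number are set side by side there as a description, since their correlation after subtraction of the group means was weaker, with r = 0.389, 0.0840 and 0.465 at 3 weeks and 0.178 at 5 weeks. ENSRNOG00000029911 stood at 96.0, 32.5 and 32.6 CPM in 3w2 and at 47.9, 5.37 and 12.2 CPM in 3w100, and at 62.6 and 45.5 CPM in 5w2 against 49.1 and 4.82 CPM in 5w100. Each soft library exceeded the stiff library of its number at every week. ENSRNOG00000002385 did so as well, with 1.62, 5.19 and 0.14 CPM in 3w2 against 0.67, 0.17 and 0 in 3w100, and 21.2 and 4.07 CPM in 5w2 against 5.95 and 0 in 5w100.

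ENSRNOG00000017786 was higher in the stiff library in 2 of 3 pairs at 3 weeks, with 34.0, 63.6 and 61.0 CPM in 3w2 and 61.7, 138 and 51.5 CPM in 3w100. At 5 weeks it stood at 68.8 and 116 CPM in 5w2 and at 168 and 98.6 CPM in 5w100, so that the libraries numbered 1 and 2 pointed in opposite directions. ENSRNOG00000005825 was nearly gone at 3 weeks, with 1.29, 0.32 and 3.20 CPM in 3w2 and 2.56, 2.14 and 8.0 CPM in 3w100, and it had 0 counts in the 4 libraries of 5w2 and 5w100. Its log2 fold change from 1 to 3 weeks over both surfaces was -6.18 (edgeR adjusted p = 7.59e-06). The change of the surface difference from 1 to 3 weeks was tested as an interaction in the edgeR fit over all groups, without pairing. It gave unadjusted p-values of 0.455 to 0.917 for the 4 genes. Their 1-week differences had standard errors of 0.53 to 1.70 in that fit, so it could hardly detect a change.

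Directions at 3 and 5 weeks were taken from the unpaired fit over all groups, whereas those at 1 week came from the paired fit. Of the 14 genes called higher in 1w2, 13 had the same direction between 3w2 and 3w100 and 12 between 5w2 and 5w100. Their median log2 fold changes were 0.94 and 0.61 at these weeks. Of the 25 genes called higher in 1w100, 20 had the same direction at 3 weeks and 20 at 5 weeks. The medians of the 25 were -0.49 and -0.97. However, 12 of them were near the floor at 5 weeks, with a level summed over these genes of at most 1.14 CPM. In such genes a fitted direction can rest on single reads, and a gene without counts has none. Of the other 13, 10 shared the direction at 3 weeks and 12 at 5 weeks, with medians of -0.49 and -0.94. Among all tested genes the direction was shared by 56.5% at 3 weeks and 59.3% at 5 weeks. In a separate fit with the paired layout of 1 week, edgeR called 0 of 12918 genes (0%) at 3 weeks, with 1710 below 0.05 before adjustment. At 5 weeks it called 0 of 12726 (0%), with 1513, while DESeq2 called 166 at 3 weeks and 383 at 5 weeks. The shared directions are thus a description of fitted values and not of calls at these weeks. They were sequenced in other libraries, but the labels do not say whether the cells came from the same rats.

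Among the 25 genes called higher in 1w100 were many that were expressed at 1 week and all but lost by 3 weeks on both surfaces. In a definition made after the values were seen, a gene was counted as lost when its mean over 3w2 and 3w100 was over 10-fold below its mean on the log scale over 1w2 and 1w100 with an edgeR adjusted p below 0.05. This held for 260 of the 13207 genes (1.97%) and for 12 of the 25, and for 0 of the 14 higher in 1w2. Counting any called decrease from 1 to 3 weeks, 18 of the 25 and 1 of the 14 fell, against 10.7% of all tested genes, while 2 of the 25 and 0 of the 14 rose, against 10.2%. A called rise of over 10-fold, seen in 0.0984% of all tested genes, occurred in 0 of the 39. The definition averages the surfaces and so does not use their difference at 1 week, although it rests on the same 6 libraries. DESeq2 in place of edgeR also gave 12 of the 25.

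The 12 lost genes had larger differences between the surfaces at 1 week than the other 13. Their median log2 fold change was -0.93, with folds from 1.30 to 3.55, and that of the other 13 was -0.41. The lost genes were also scarcer, with a median of 15.8 CPM against 52.3 CPM. Their median standard error in the paired fit was 0.145 against 0.066. A gene with a larger error needs a larger fold to be called, so the selection itself favors this order of sizes. Summed over the 12 genes, the level was 494, 173 and 263 CPM in 1w2 and 724, 311 and 526 CPM in 1w100. Each stiff library lay above its soft counterpart, the libraries numbered 2 were the lowest on both surfaces, and the soft library numbered 1 exceeded the stiff library numbered 2. The groups of 3 weeks had sums of 1.34 to 21.0 CPM with a median of 6.10, and those of 5 weeks 0.259 to 1.14 CPM with a median of 0.883.

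The whole group of 260 lost genes, most of which were not called between the surfaces, leaned the same way. Of these, 221 had a higher fitted level in 1w100 and 39 in 1w2, and the median log2 fold change was -0.33. Among all 13207 tested genes, 6570 had a higher fitted level in 1w100. Without the 12 called genes, 209 of the remaining 248 were higher in 1w100, with a median of -0.32. The genes were mostly scarce, with a median of 2.37 CPM, and among the 40 with at least 10 CPM the median was -0.25 with 35 higher in 1w100.

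By pair, 192 of the 260 (73.8%) were higher in the stiff library numbered 1, 224 (86.2%) in that numbered 2 and 201 (77.3%) in that numbered 3, with medians of -0.21, -0.47 and -0.30. Among all tested genes the corresponding shares were 51.9%, 49.4% and 50.9%, and the medians were -0.01, 0.00 and -0.00. Each pair thus showed the same direction, and the pair numbered 2 showed it most. Most single genes in this group differed little, with 212 of the 260 under 1.5-fold and 16 over 2-fold. Larger differences were still more frequent than among all 13207 tested genes, where 12925 were under 1.5-fold and 62 (0.469%) over 2-fold. The median standard error in the paired fit was also larger, at 0.21 in this group against 0.08 for all tested genes.

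**Figure D4:**
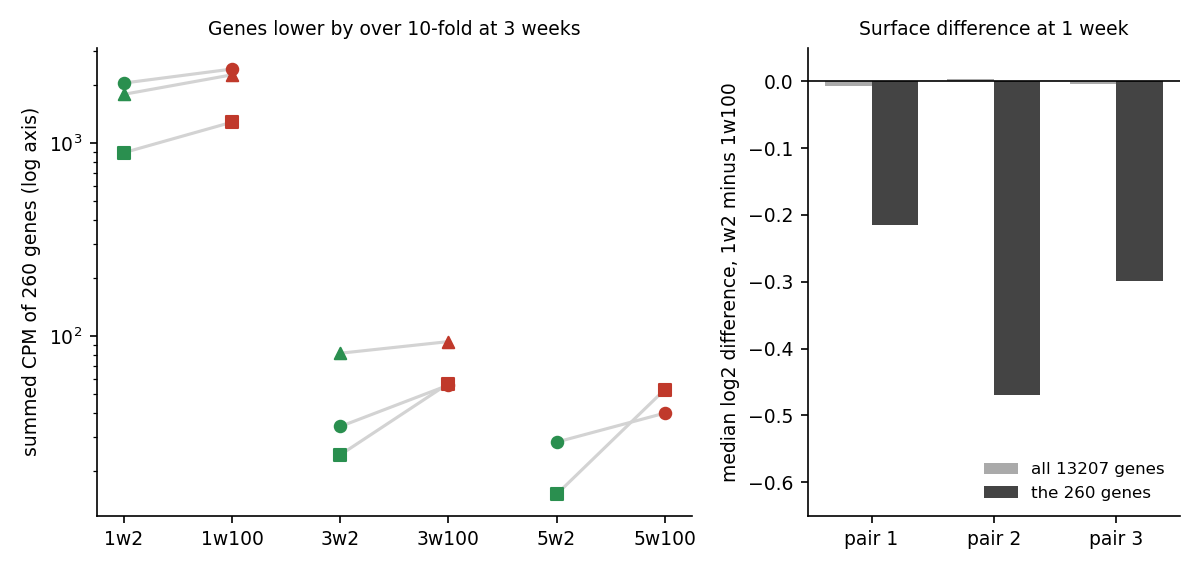
Left, summed CPM of the 260 genes lost by 3 weeks in each library on a log axis, soft in green and stiff in red, with lines joining libraries of one replicate number (circle 1, square 2, triangle 3). Right, median log2 difference of 1w2 minus 1w100 in each pair, for all 13207 genes (light bars, -0.01 to 0.00) and for the 260 genes (dark bars, -0.21 to -0.47).

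Summed over the 260 genes, the level in the soft and stiff libraries was 2056 and 2432 CPM in the pair numbered 1, 895 and 1289 CPM in the pair numbered 2, and 1798 and 2270 CPM in the pair numbered 3. The stiff library was 1.18-fold, 1.44-fold and 1.26-fold higher in these pairs. The ranges of the surfaces overlapped, because the pair numbered 2 was low on both. At 3 weeks the sum was 24.1 to 93.5 CPM with a median of 56.1, at 5 weeks at most 52.6 CPM with a median of 33.9, and in the switched cultures 17.1 to 48.9 CPM. The low level at 3 weeks follows from the definition of the group. The 5-week and switched libraries did not enter its fold, although they shared the fit that gave its adjusted p. Each of these libraries lay below every 1-week library. Which cell types express these genes, and the part of such cells in the difference between the surfaces, was not tested.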

How the data were processed

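Bulk RNA-seq libraries of rat MSCs were grouped by their labels. The deposited values are raw counts for each Ensembl gene, for which the authors trimmed the reads with TrimGalore!, checked them with FastQC, mapped them to rn7 with HISAT2 and counted them with FeatureCounts. Not given in the sources used here are the versions, the strand setting and the treatment of reads that match several genes, so overlapping, antisense and near-identical genes are uncertain. Of 30560 table entries, 0 named no gene, and the authors' own comparisons were not used.

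Tests used edgeR 4.0.16 in R 4.3.3 (TMM factors, filterByExpr with a minimum count of 10 and a total of 15, quasi-likelihood test, Benjamini-Hochberg adjustment over all genes tested, threshold 0.05). The fit over 20 libraries and 8 groups had no block. The study's methods name DESeq2 and state no model terms. The paired fit used 6 libraries with the replicate number as a block. Pairing was taken from the data, since every same-numbered correlation of deviations from the group means exceeded 0.1. DESeq2 1.42.0 and limma 3.58.1 (voom) served as alternatives. Log2 CPM values have a prior count of 2. Scripts were tested on simulated data.

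Named genes were the called genes of smallest p in the paired fit whose 3 pairs moved one way, with a mean of at least 2 CPM. The rule allowed more, and 2 identifiers per direction are given because the files used here do not pair them with symbols. For the same reason lists of pathway and cell type genes gave no values, and no sequences are shown. The comparison, its lists and its tests were taken up with earlier results of these data known, and libraries were assigned to it by label alone.

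Totals of 16473534 to 19526226 counts per 1-week library set the precision, and the upper limit for a gene at 0 is 3 counts, which covers counting error alone.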

Additional observations from a re-analysis of the deposited data

How the results depend on the processing

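Whether genes were called between 1w2 and 1w100 depended on pairing the libraries by number. Without the replicate block edgeR called 0 genes with RLE factors, with either other filter, on only the 6 libraries and with each library left out in turn, DESeq2 called 0 on all groups and on the 6 libraries, and 54 passed in edgeR at an unadjusted p. edgeR over all 20 libraries with the block also called 0. On the 6 libraries with the replicate block, edgeR called 39, 42 with RLE factors, 184 without a filter on low counts and 1041 at an unadjusted p, and DESeq2 called 27, of which 23 were among the 39. Chosen after seeing the data, robust edgeR and limma-voom with the block each called 33 genes, 32 of them among the 39. Leaving out 1 pair at a time, the block fit called 5 genes without the pair numbered 1, 92 without the pair numbered 2 and 153 without the pair numbered 3. The causes were not tested.

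Genes called for the replicate number were 3323 with DESeq2's likelihood ratio test and 2035 to 4767 with 1 pair left out. With 1 pair left out, the replicate number held 62.8% to 79.6% of the squares and the surface 11.3% to 22.3%, and leaving out the pair numbered 3 gave 62.8% and 22.3%. With single libraries left out of the fit over all groups, the log2 fold change of ENSRNOG00000029911 was -1.04 to 2.22, with -1.04 without 1w2 replicate 3, and that of ENSRNOG00000017786 was -1.73 to 0.28, with 0.28 without 1w100 replicate 2. All these had an edgeR adjusted p of 1. Scaling by RLE in place of TMM moved the median log2 fold change by less than 0.1.

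The count of 12 lost genes among those higher in 1w100 was 12 to 14 with RLE factors, DESeq2, 5-fold or 5 weeks, and the median of all lost genes was -0.36 to -0.25 over its 8 alternatives. Alternatives for gene lists were not run, since no identifier had a symbol.

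The scarcest called gene had a mean of 1.06 CPM, and how detection depends on a gene's level was not tested. The paired p-values hold only if same-numbered libraries belong together, which the labels do not state.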

Other observations

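Genes gained with culture were too few to compare. From 1 to 3 weeks, 13 of 13207 genes (0.0984%) rose by over 10-fold over both surfaces with an edgeR adjusted p below 0.05. At 1 week 8 of them had a higher fitted level in 1w2 and 5 in 1w100, with a median log2 fold change of 0.25.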
